A study of Mus musculus with 12 samples.

Results

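Hippocampal interneurons release GABA onto their targets, and the classes into which they fall are told apart by a small set of genes. A set of 10 such genes was examined: *Gad1*, *Gad2*, *Slc32a1*, *Pvalb*, *Sst*, *Vip*, *Cck*, *Npy*, *Reln* and *Calb2*. They were chosen by name, at a time when earlier results of these data were already known. All 10 were found among the 37991 genes of the deposited count files, and all 10 were among the 16399 genes that had enough reads to be tested. The hippocampi came from 6 *Gadd45a*-/- mice (labelled *Gadd45a*-KO here) and 6 wild type siblings (*Gadd45a*-WT), offspring of crosses between heterozygous carriers. The mice were of strain C57BL/6N and 6 to 7 months old by the sample labels, while the methods of the study give a younger range of ages and male sex. Each mouse had gone through passive avoidance (PA) training, an aversive memory task, and was killed 1 h later. The mutant carries a neomycin cassette in place of the first exons of *Gadd45a* in all of its cells, so that nothing in the design separates interneurons from the other cells of the hippocampus.

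In these cells *Gad1* and *Gad2* encode the enzymes that make GABA from glutamate, and *Slc32a1* encodes the transporter that loads GABA into synaptic vesicles. Parvalbumin (*Pvalb*) and calretinin (*Calb2*) are calcium-binding proteins, and the peptides somatostatin (*Sst*), vasoactive intestinal peptide (*Vip*), cholecystokinin (*Cck*) and neuropeptide Y (*Npy*) are released beside GABA. Parvalbumin cells mostly contact cell bodies and axon initial segments, somatostatin cells contact dendrites, and many *Vip* or calretinin cells contact other interneurons. Reelin (*Reln*) is a secreted protein of some interneurons and of Cajal-Retzius cells that binds the receptors *Vldlr* and *Lrp8*. Several of these genes are not specific to interneurons in the hippocampus, since pyramidal cells also make *Cck* and mossy cells of the mouse dentate gyrus also make calretinin.

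The libraries held 44594261 to 55540601 reads on genes, and 1 read is worth 0.0180 CPM (reads scaled to a common library size) in the deepest of them. On *Gadd45a* itself the reads ran against the labels. It had 2.19 to 3.43 CPM under the label *Gadd45a*-WT and 20.5 to 23.1 CPM under *Gadd45a*-KO, and counts per gene do not separate the replaced exons from the remaining one. Groups are therefore named by label throughout, and every direction given below is that of the labels. All 8 genes taken as markers of hippocampal principal cells were expressed, led by *Slc17a7*, the vesicular glutamate transporter, at 1393 ± 128 CPM in *Gadd45a*-WT and 1409 ± 66.2 CPM in *Gadd45a*-KO (SD, n = 6). Replicates 2 and 3 labelled *Gadd45a*-KO stood apart from the rest. The summed level of 8 thalamic markers was 343 and 492 CPM in them and 133 to 177 CPM in the other 10 libraries, and replicate 3 also had 6653 CPM over 4 oligodendrocyte markers against 2111 to 3425 CPM elsewhere. The defining thalamic marker *Gbx2* was too low to be tested. It had at most 0.054 CPM in *Gadd45a*-WT, and a median of 0.090 and a maximum of 0.829 CPM in *Gadd45a*-KO. The share of reads without a gene was 14.4% to 15.8% in *Gadd45a*-WT and 13.0% to 14.3% in *Gadd45a*-KO, and the labels did not overlap (two-sided p = 0.00216 by exact permutation, the lower limit for groups of 6).

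The promoters of 3 peptide genes are shown because their levels varied together over the 12 libraries, as given further down. The sequences are from RefSeq (GRCm38.p6), 250 bases before to 50 after the gene's start, read 5′ to 3′ on the strand of the gene. Capitals mark the letters of the cAMP response element, TGACGTCA in full or TGACG as its shorter core, which were searched on both strands. *Sst* lies at chr16:23890795-23891094 (minus strand), *Cck* at chr9:121495645-121495944 (minus strand) and *Npy* at chr6:49822460-49822759 (plus strand).
Sst: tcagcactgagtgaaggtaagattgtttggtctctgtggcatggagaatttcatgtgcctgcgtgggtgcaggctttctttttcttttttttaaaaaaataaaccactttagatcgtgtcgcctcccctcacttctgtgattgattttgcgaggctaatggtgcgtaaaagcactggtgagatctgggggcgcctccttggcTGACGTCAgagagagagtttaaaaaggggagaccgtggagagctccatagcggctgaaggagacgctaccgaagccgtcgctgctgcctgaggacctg
Cck: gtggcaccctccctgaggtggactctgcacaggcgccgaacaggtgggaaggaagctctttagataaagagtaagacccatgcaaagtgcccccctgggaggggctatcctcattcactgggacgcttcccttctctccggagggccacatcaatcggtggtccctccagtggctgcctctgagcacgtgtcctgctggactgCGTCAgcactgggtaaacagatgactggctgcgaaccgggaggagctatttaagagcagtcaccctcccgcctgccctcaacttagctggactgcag
Npy: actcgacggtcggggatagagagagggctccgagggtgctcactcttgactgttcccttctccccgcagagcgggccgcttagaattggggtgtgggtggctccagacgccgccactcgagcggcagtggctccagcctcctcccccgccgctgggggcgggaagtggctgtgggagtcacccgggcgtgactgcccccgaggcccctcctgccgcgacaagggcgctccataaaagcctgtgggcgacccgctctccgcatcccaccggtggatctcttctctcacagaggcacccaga
In the *Sst* window the full element began at -48 from the start, and the 2 matches to TGACG there lie inside it. The *Cck* window held 1 match to TGACG, on the opposite strand at -47, where it reads CGTCA. The *Npy* window held neither form. Among the other members, *Gad2* had 1 match to TGACG at -33 and *Vip* had 1 at -79, and *Gad1*, *Slc32a1*, *Reln* and both windows of *Pvalb* had none. Over all 32851 RefSeq promoters of this length, 1.79% held TGACGTCA and 20.8% held TGACG. *Vip* was the only member whose window held TATAAA, searched on the strand of the gene, which 8.32% of all promoters held. Promoters were matched for 9 of the 10 members by symbol, and *Calb2* was not matched. These matches describe letters only, and binding was not measured.

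None of the 10 markers passed the test between the labels. In the quasi-likelihood test of edgeR, 430 of the 16399 genes tested (2.62%) were lower in *Gadd45a*-KO and 4 (0.0244%) were higher at a false discovery rate of 1%, and 0 of the 10 markers was among them. At 5% the test called 746 genes (4.55%) and 0 markers. An unadjusted p under 0.05 was reached by 2245 genes (13.7%) and by 0 markers, and DESeq2 also gave 0 markers at each of these thresholds. The groups did not overlap for 542 genes (3.31%), and they overlapped for all 10 markers. The log2 fold change was below 0 for 8 of the 10, with a median of -0.047, whereas it was below 0 for 7905 of all genes tested, with a median of 0.0033. That number ranged from 5 to 9 of the 10 over the processing alternatives, so that most of these signs carry no direction. In RNA of whole tissue, fewer cells of a class and less RNA per cell cannot be told apart. The p-values measure the spread between mice, 1 library each.

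**Figure D1:**
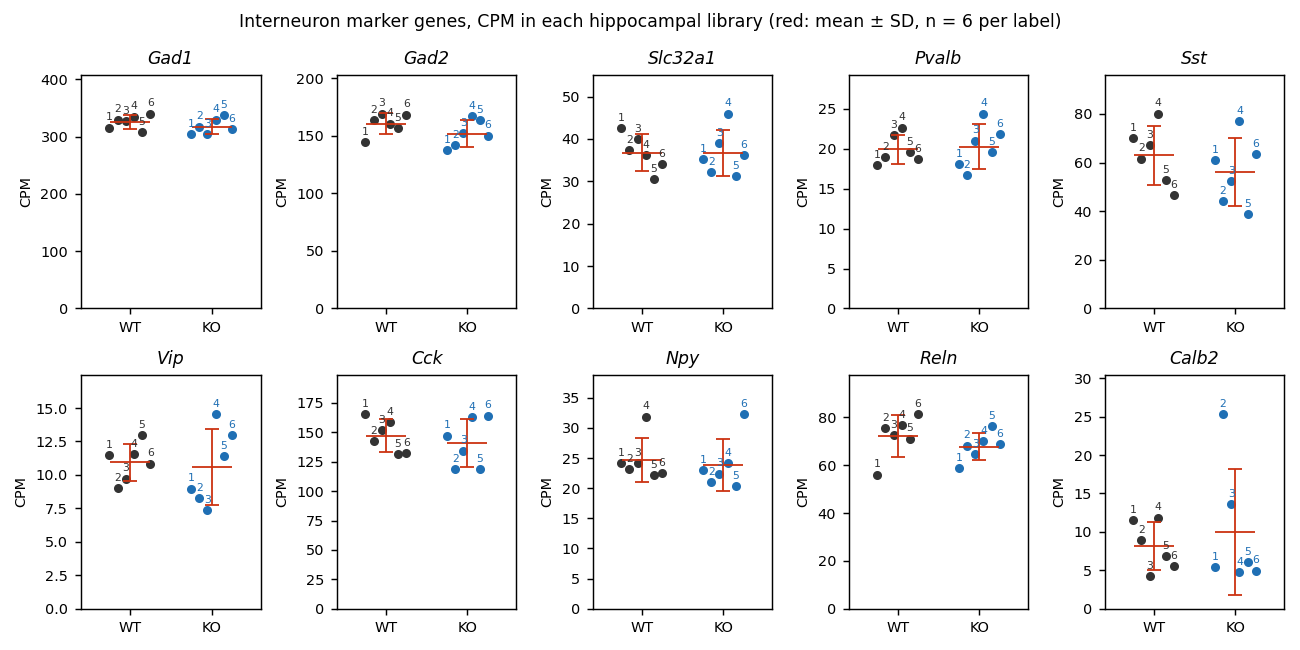
Each panel plots 1 marker gene, with the level in CPM on the vertical axis, the label on the horizontal axis and 1 numbered point per library (6 Gadd45a-WT in black, 6 Gadd45a-KO in blue), and red lines give the mean ± SD. The 2 labels overlap in every panel, and Calb2 in replicates 2 and 3 labelled Gadd45a-KO, at 25.4 and 13.6 CPM, lies above all other libraries.

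The genes of GABA synthesis and loading were at nearly the same level under both labels. *Gad1* (ENSMUSG00000070880, chr2:70391129-70440071 in NCBIM37) ranged from 308 CPM through a median of 328 to 340 CPM in *Gadd45a*-WT, and from 304 through 315 to 337 CPM in *Gadd45a*-KO. The 2 lowest libraries of all 12 were labelled *Gadd45a*-KO, and the other 4 of that label lay inside the *Gadd45a*-WT range. The means were 326 ± 12.02 and 318 ± 13.5 CPM (SD, n = 6 each), or -0.038 as log2 fold change (standard error 0.037, 95% interval -0.12 to 0.041, adjusted p = 0.755 after Benjamini-Hochberg correction in the quasi-likelihood test of edgeR). *Gad1* had the narrowest interval of the 10, and in linear terms it runs from 0.922 to 1.03 times the *Gadd45a*-WT level.

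*Gad2* (ENSMUSG00000026787, chr2:22477725-22549394), which encodes the form of the enzyme enriched at nerve terminals, ran from 144 through 162 to 169 CPM in *Gadd45a*-WT and from 137 through 151 to 167 CPM in *Gadd45a*-KO. Replicates 1 and 2 labelled *Gadd45a*-KO lay below every *Gadd45a*-WT library, and no library of that label lay above them. Its log2 fold change was -0.079 (standard error 0.053, 95% interval -0.19 to 0.035, adjusted p = 0.589, same edgeR test). *Slc32a1* (ENSMUSG00000037771, chr2:158436494-158441484) ran from 30.5 through 36.7 to 42.6 CPM and from 31.2 through 35.7 to 46.0 CPM. One library, replicate 4 labelled *Gadd45a*-KO, exceeded the *Gadd45a*-WT range and none fell below it. For *Slc32a1* the log2 fold change was -0.0057 (standard error 0.094, 95% interval -0.21 to 0.20, adjusted p = 0.991, same edgeR test), and the sign turned with the size factors or the filter chosen.

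Both calcium-binding proteins were among the genes with a positive estimate, but with very different precision. *Pvalb* (ENSMUSG00000005716, chr15:78021544-78036830) ran from 17.96 through 19.3 to 22.6 CPM in *Gadd45a*-WT and from 16.7 through 20.3 to 24.4 CPM in *Gadd45a*-KO. The *Gadd45a*-KO libraries thus enclosed the *Gadd45a*-WT range, with 1 library below it and 1 above it. For *Pvalb* the fitted log2 difference was 0.024 (standard error 0.086, 95% interval -0.16 to 0.21, adjusted p = 0.949, same edgeR test), and it was -0.028 without replicate 4 labelled *Gadd45a*-KO.

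*Calb2* (ENSMUSG00000003657, chr8:112661402-112692110) was the most variable of the 10. In *Gadd45a*-WT, replicates 1 to 6 had 11.5, 8.92, 4.28, 11.9, 6.81 and 5.57 CPM. In *Gadd45a*-KO, replicates 1 to 6 had 5.38, 25.4, 13.6, 4.79, 6.04 and 4.96 CPM. Replicates 2 and 3 were therefore above every *Gadd45a*-WT library, and the other 4 lay in the lower part of the *Gadd45a*-WT range. Replicates 2 and 3 are the libraries with the high thalamic marker sums, and the part of those cells in the *Calb2* level was not tested. Calretinin is also made by neurons of midline thalamic nuclei. Over all 12 libraries the log2 fold change was 0.29 (standard error 0.41, 95% interval -0.59 to 1.18, adjusted p = 0.850, same edgeR test), and in linear terms the interval runs from 0.664 to 2.26 times the *Gadd45a*-WT level. Differences in *Calb2* anywhere inside that interval remain compatible with these libraries. The estimate turned to -0.22 without replicate 2 and to -0.62 without replicates 2 and 3 labelled *Gadd45a*-KO (adjusted p = 0.880 and 0.362, same edgeR test), and in the latter fit *Calb2* was the 1 marker with an unadjusted p under 0.05.

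The 4 peptide genes gave log2 fold changes between -0.17 and -0.046. *Sst* (ENSMUSG00000004366, chr16:23889667-23890930) ran from 46.5 through 64.4 to 80.1 CPM in *Gadd45a*-WT and from 38.8 through 56.6 to 76.9 CPM in *Gadd45a*-KO. Replicates 2 and 5 labelled *Gadd45a*-KO were below all *Gadd45a*-WT libraries, at 44.3 and 38.8 CPM, and the other 4 lay inside that range. The means were 63.0 ± 12.1 and 56.1 ± 13.9 CPM, and their log2 fold change was -0.17 (standard error 0.16, 95% interval -0.50 to 0.17, adjusted p = 0.745, same edgeR test).

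*Cck* (ENSMUSG00000032532, chr9:121398943-121404807) ran from 132 through 147 to 166 CPM and from 118 through 141 to 164 CPM. The same replicates 2 and 5 labelled *Gadd45a*-KO, at 119 and 118 CPM, were the lowest of the 12. The fitted difference was -0.062 on the log2 scale (standard error 0.089, 95% interval -0.25 to 0.13, adjusted p = 0.853, same edgeR test), and 0.0095 without replicates 2 and 3 of that label. *Npy* (ENSMUSG00000029819, chr6:49772709-49779506) ran from 22.1 through 23.6 to 31.9 CPM and from 20.3 through 22.7 to 32.3 CPM. One library of each label stood above the rest, replicate 4 of *Gadd45a*-WT and replicate 6 of *Gadd45a*-KO, while the remaining 10 lay between 20.3 and 24.2 CPM. On the log2 scale the difference in *Npy* was -0.047 (standard error 0.11, 95% interval -0.29 to 0.19, adjusted p = 0.922, same edgeR test).

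*Vip* (ENSMUSG00000019772, chr10:4698927-4707323) had the lowest level per kb of exon of the 4 peptide genes. It ran from 9.04 through 11.2 to 13.0 CPM in *Gadd45a*-WT, and from 7.35 through 10.2 to 14.6 CPM in *Gadd45a*-KO. Of the 6 *Gadd45a*-KO libraries, 3 lay below the *Gadd45a*-WT range and 2 above it, and a difference in spread was not tested. On the log2 scale the difference in *Vip* was -0.046 (standard error 0.15, 95% interval -0.37 to 0.28, adjusted p = 0.945, same edgeR test), and 0.13 without replicates 2 and 3 labelled *Gadd45a*-KO.

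*Reln* (ENSMUSG00000042453, chr5:21390272-21850523) ran from 56.1 through 74.1 to 81.5 CPM in *Gadd45a*-WT and from 58.9 through 68.5 to 76.4 CPM in *Gadd45a*-KO. The whole *Gadd45a*-KO range lay inside that of *Gadd45a*-WT, although 5 of the 6 libraries were below the *Gadd45a*-WT mean of 72.3 ± 8.73 CPM. The log2 fold change was -0.093 (standard error 0.079, 95% interval -0.26 to 0.076, adjusted p = 0.706, same edgeR test). With an offset that removes a smooth trend of the differences with transcript length, it was 0.053, and *Reln* has the longest exon sequence of the 10.

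**Figure D2:**
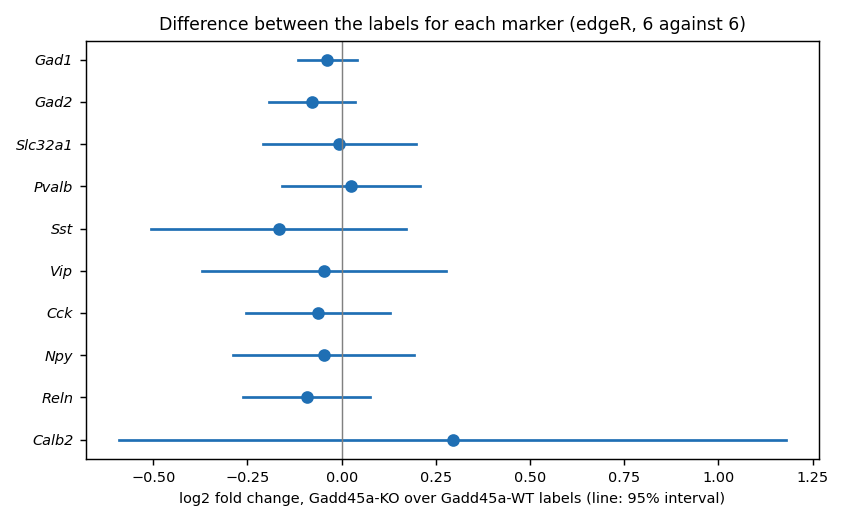
Points give the log2 fold change of each marker, Gadd45a-KO over Gadd45a-WT, on the horizontal axis, and lines give the 95% interval from the edgeR fit over 6 against 6 libraries. Every interval includes 0, from the narrowest at Gad1 (-0.12 to 0.041) to the widest at Calb2 (-0.59 to 1.18).

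To set genes of different length beside each other, levels were divided by kb of annotated exon, and they spanned from *Cck* to *Reln*. The paper reports that read density in both genotypes leaned toward the 3′ end of transcripts, and the division does not account for this. In *Gadd45a*-WT the means were 174 CPM per kb for *Cck*, 105 for *Sst*, 43.6 for *Npy* and 42.7 for *Gad1*. They were 27.3 CPM per kb for *Gad2*, 19.1 for *Pvalb*, 13.1 for *Slc32a1*, 7.16 for *Vip*, 4.68 for *Calb2* and 3.64 for *Reln*. By this length, the order of the means was the same in *Gadd45a*-KO. In both labels the ranges of *Npy* and *Gad1*, of *Vip* and *Calb2*, and of *Calb2* and *Reln* overlapped. Within single libraries *Vip* was above *Calb2* in 6 of 6 libraries of *Gadd45a*-WT and in 4 of 6 of *Gadd45a*-KO, the exceptions being replicates 2 and 3. The order of *Npy* and *Gad1* and that of *Calb2* and *Reln* varied from library to library under both labels. In *Gadd45a*-KO the ranges of *Gad2* and *Pvalb* and of *Pvalb* and *Slc32a1* overlapped too, although each library kept that order. The order depended on the length used. Per kb of longest transcript, *Reln* was above *Calb2* in *Gadd45a*-WT, at means of 6.18 and 5.70 CPM per kb. By the same length, the order in *Gadd45a*-KO ended with *Calb2* at 7.01, *Vip* at 6.94 and *Reln* at 5.80 CPM per kb. *Gad1* has 7639 bases of annotated exon in all but a longest transcript of 3601 bases, and per kb of longest transcript it came after *Cck* and *Sst*, at 90.5 CPM per kb in *Gadd45a*-WT, where its range overlapped that of *Sst* and lay above that of *Npy*.

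**Figure D3:**
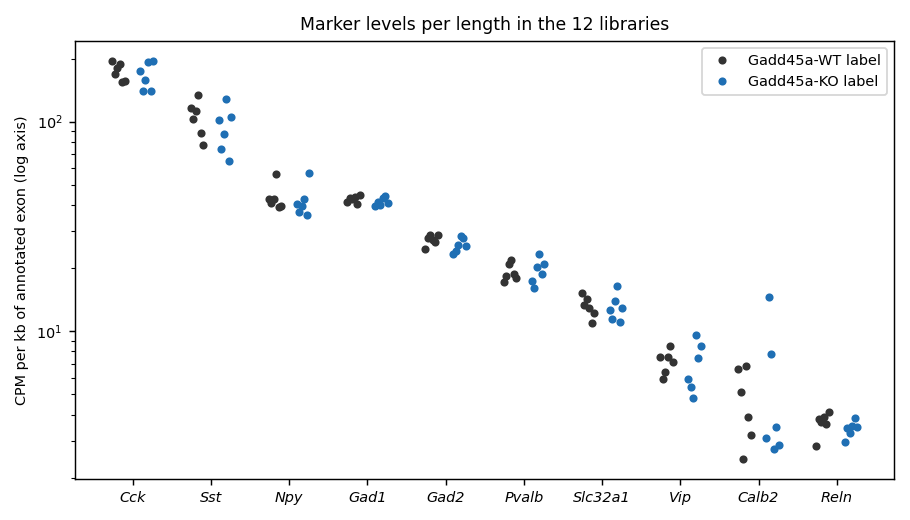
The vertical axis, on a log scale, gives the level of each marker in CPM per kb of annotated exon, with 1 point per library and the markers ordered from left to right by their Gadd45a-WT mean. Cck (mean of 174 CPM per kb in Gadd45a-WT) and Sst (105) lie above the other 8 markers in all 12 libraries, and the points of Calb2 spread across those of Vip and Reln.

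For 9 of the 10 markers the spread between mice of one label was above the median of genes of a like level, under both labels. The coefficient of variation of *Sst* was 19.3% in *Gadd45a*-WT and 24.7% in *Gadd45a*-KO, against medians of 5.08% and 4.99% over the 4510 genes within a 2-fold range of its mean level. *Calb2* had 38.4% and 82.1% against medians of 7.83% and 8.05%. *Cck*, at 9.52% and 14.5%, and *Slc32a1*, at 11.7% and 14.7%, were also above their medians of 4.95% to 5.31%. *Gad1* was the exception, since its 3.69% and 4.25% lay below the medians of 5.41% and 5.22%. Under both labels *Gad1* had the smallest coefficient of the 10 and *Calb2* the largest. Counting error is small beside these spreads, because even the lowest library had 233 reads on *Calb2* and 376 on *Vip*.

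Over the 12 libraries, some of the markers varied together within the labels. Correlations were computed on log2 CPM after the mean of each label had been removed, for all 45 pairs of markers, and 4 pairs reached an adjusted p under 0.05 by permutation within the labels with Benjamini-Hochberg adjustment. *Sst* and *Cck* were the closest pair, with Pearson's r = 0.93 (permutation p = 0.00011, adjusted p = 0.00495) and Spearman's rho = 0.91 over ranks within the labels (permutation p = 0.0006, adjusted p = 0.0068). Without the 2 libraries farthest from the mean of their label in *Sst*, r was 0.90. Within the labels alone r was 0.90 in *Gadd45a*-WT and 0.95 in *Gadd45a*-KO.

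*Cck* and *Npy* had r = 0.74 (permutation p = 0.0016, adjusted p = 0.0367) and rho = 0.97 (adjusted permutation p = 0.0022), and r was 0.65 without the 2 farthest libraries, 0.63 within *Gadd45a*-WT and 0.80 within *Gadd45a*-KO. *Sst* and *Npy* had r = 0.69 (adjusted permutation p = 0.113) but rho = 0.94 (adjusted permutation p = 0.0027). These are the 3 genes whose promoters are printed above, of which 1 held TGACGTCA, 1 held TGACG and 1 held neither.

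*Reln* went with the GABA enzymes rather than with the peptides. *Gad1* and *Reln* had r = 0.75 (permutation p = 0.0038, adjusted p = 0.0426) and rho = 0.94 (adjusted permutation p = 0.0027), and r was 0.82 without the 2 farthest libraries, 0.68 within *Gadd45a*-WT and 0.90 within *Gadd45a*-KO. *Gad2* and *Reln* had r = 0.79 (permutation p = 0.0031, adjusted p = 0.0426) but rho = 0.69 (adjusted permutation p = 0.151). Without replicate 1 of each label, where both genes were low, that r was 0.51, so that it rests in part on those libraries. *Gad1* and *Gad2* had r = 0.73 (adjusted permutation p = 0.0971). *Slc32a1*, which acts in the same pathway, had r = 0.0084 with *Gad1* and 0.14 with *Gad2*, but 0.76 with *Sst* and 0.77 with *Cck* (adjusted permutation p = 0.0581 for both). All of these values share their libraries, depth and scaling. The genes that went together were also alike in length. Annotated exon was 599, 848 and 566 bases for *Sst*, *Cck* and *Npy*, and 7639, 5876 and 19845 bases for *Gad1*, *Gad2* and *Reln*. *Pvalb*, *Vip* and *Calb2*, at 1041, 1527 and 1742 bases, were in no pair with an adjusted p under 0.05 for r by permutation. The part of length in these correlations was not tested.

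**Figure D4:**
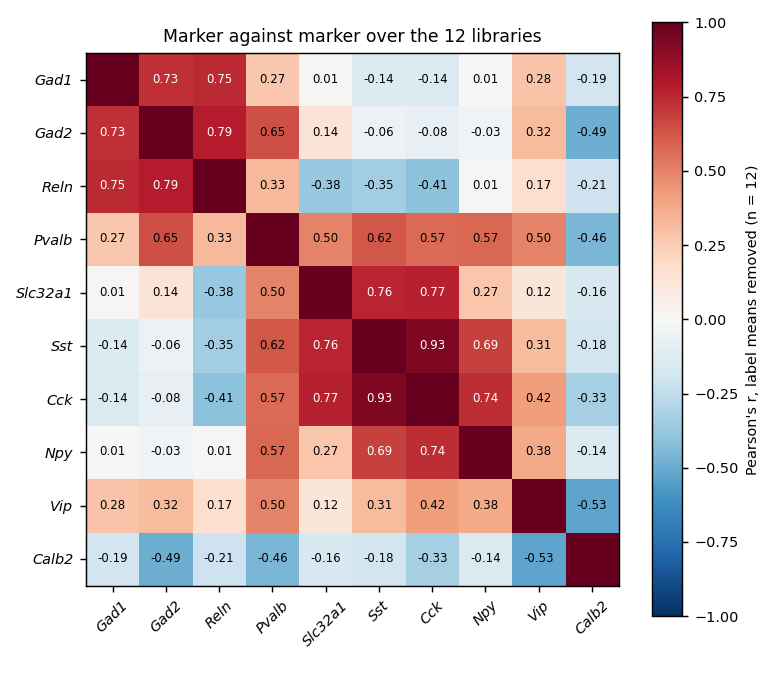
Each square gives Pearson's r between 2 markers over 12 libraries after removal of the label means, printed in the square and coloured blue below 0 and red above 0. Sst and Cck (0.93) and Gad2 and Reln (0.79) head the 2 groups of warm squares. Calb2 has pooled values below 0 with each of the other 9 markers. Within Gadd45a-WT alone Calb2 had r = 0.56 with Sst, 0.54 with Cck and with Npy, 0.25 with Vip and 0.21 with Slc32a1. Its r there was below 0 with Gad1, Gad2, Pvalb and Reln.

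The markers were also set against the summed levels of 8 lists of marker genes for other cells and against the share of reads without a gene, in 90 relations, of which 2 reached an adjusted permutation p under 0.05. Both concern *Vip*. *Vip* was lower in libraries with a higher sum of 4 Cajal-Retzius markers, with r = -0.78 (permutation p = 0.0002, adjusted p = 0.0216) and rho = -0.97 (adjusted permutation p = 0.0027), and r was -0.76 without the 2 farthest libraries. Within the labels r was -0.98 in *Gadd45a*-WT and -0.82 in *Gadd45a*-KO. That sum was small, from 7.26 to 12.2 CPM, and most of it was *Trp73*. *Vip* was also lower where the oligodendrocyte sum was higher, with r = -0.78 (permutation p = 0.0007, adjusted p = 0.0311) but rho = -0.77 (adjusted permutation p = 0.214), and r was -0.68 without the 2 farthest libraries, replicate 3 labelled *Gadd45a*-KO among them.

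For *Calb2* and the thalamic sum no pooled relation is given, because replicates 2 and 3 labelled *Gadd45a*-KO form a separate cluster on that axis. Within the 6 libraries labelled *Gadd45a*-WT, whose thalamic sums ran from 134 to 177 CPM, r was -0.074. Within the 6 labelled *Gadd45a*-KO r was 0.86, and both libraries that stand apart are among those 6. Replicates 2 and 3 labelled *Gadd45a*-KO were also low in *Vip*, at 8.26 and 7.35 CPM, the lowest of the 12. Between *Vip* and the thalamic sum r was -0.62 within *Gadd45a*-WT and -0.89 within *Gadd45a*-KO. Over ranks within the labels rho was -0.86 (adjusted permutation p = 0.0999). The share of reads without a gene, which differed between the labels, had r = -0.69 with *Sst* (adjusted permutation p = 0.298), r = -0.97 in *Gadd45a*-WT and -0.44 in *Gadd45a*-KO. With the same share r was -0.60 for *Cck*, -0.57 for *Slc32a1* and -0.51 for *Npy* (adjusted permutation p = 0.403, 0.445 and 0.609). It was above 0 for *Gad1*, *Gad2*, *Vip* and *Reln*. Against the principal cell sum r was 0.73 for *Sst*, 0.69 for *Slc32a1* and 0.67 for *Cck* (adjusted permutation p = 0.293, 0.304 and 0.387). There it was 0.13 for *Npy*, and below 0 for *Gad1*, *Gad2*, *Reln* and *Calb2*. Over ranks within the labels, rho with that sum was 0.63 for *Npy* (adjusted permutation p = 0.334). It was 0.69 for *Sst* and for *Cck* (adjusted permutation p = 0.314 for each). The part of these values in the marker levels was not tested.

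**Figure D5:**
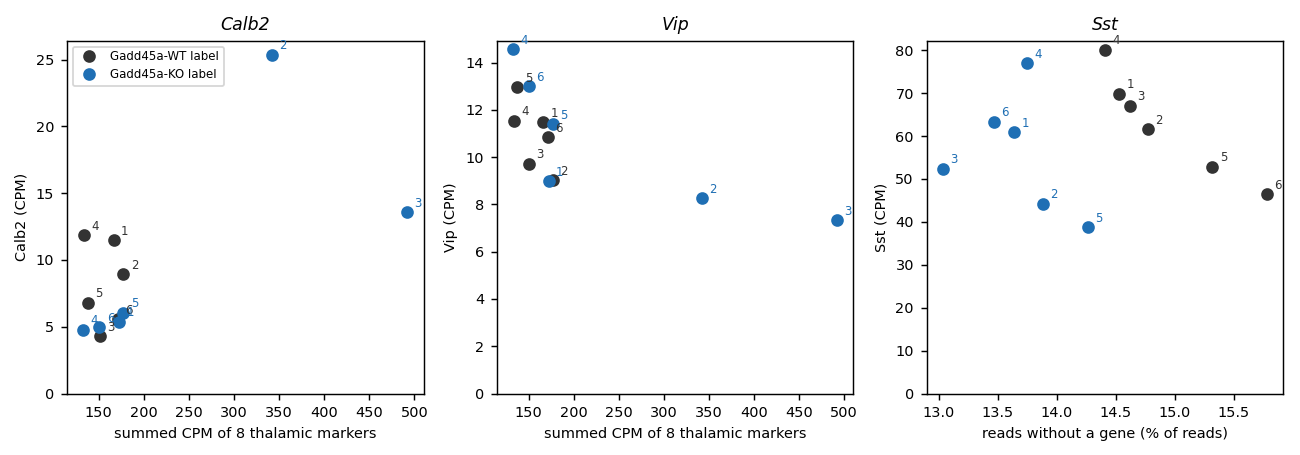
The vertical axes give Calb2, Vip and Sst in CPM, and the horizontal axes give the summed CPM of 8 thalamic markers (left and middle) or the share of reads without a gene in percent (right), with 1 numbered point per library and colours for the labels. Replicates 2 and 3 labelled Gadd45a-KO lie far to the right of the other 10 in the left and middle panels, with high Calb2 and low Vip, and in the right panel the labels do not overlap on the horizontal axis.

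The genes whose pattern over the 12 libraries was most like that of each marker were taken from the 11291 genes with a mean of at least 5 CPM, by Pearson's r after removal of the label means, as a description with no test. For *Gad2* the closest was *Erbb4* (r = 0.93), the neuregulin receptor of many interneurons, followed by *Slc17a8* (r = 0.90), the vesicular glutamate transporter of *Cck* basket cells, and *Trpc5* (r = 0.89). *Gad1* had lower values, with *Zfp518b* at 0.84, *Sntb2* at 0.77 and *Gng4* at 0.77. *Slc32a1* was most like *Ddx54* (0.96), *Ache* (0.95), which encodes acetylcholinesterase, and *Zbtb45* (0.94). Thus a gene of interneurons led the list for *Gad2* but not for the other members of the GABA pathway.

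*Sst* was most like *Rara* (0.98), a retinoic acid receptor, *Calm3* (0.96), a calmodulin gene, and *Atox1* (0.94). *Cck* was most like *Gm88* (0.97), *Bysl* (0.96) and *Cnih2* (0.96), which encodes an auxiliary subunit of AMPA receptors. *Npy* was most like *Mrpl10* (0.96) and *Chmp4b* (0.96), but these values were 0.82 and 0.77 without the 2 libraries high in *Npy*. *Vip* was most like *Slc35f1* (0.97), *Cdkl4* (0.96) and *Efnb2* (0.95). Close to *Pvalb* were *Camk1g* (0.89) and *H1f0* (0.88), *Reln* was most like *Tiparp* (0.90) and *Nt5c2* (0.90), and *Calb2* was most like *Tcfcp2* (0.91), *Col15a1* (0.91) and *Pmvk* (0.85). No member of the 10 was among the 3 genes closest to another member.

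Genes related to the markers were examined as 4 lists, and not all of them are genes of interneurons. Of 7 genes of GABA turnover and uptake, 0 passed the test at 1% in either direction, and their median log2 fold change was 0.089 against 0.0033 over all genes. Among the abundant ones, *Abat*, which breaks GABA down, was at 245 ± 13.1 CPM in *Gadd45a*-WT and 258 ± 12.1 CPM in *Gadd45a*-KO (SD, n = 6). The glutamine transporter *Slc38a1* had a log2 fold change of 0.089 (adjusted p = 0.720, same edgeR test). The astrocytic GABA transporter *Slc6a11* had 0.18 (standard error 0.076, adjusted p = 0.290, same edgeR test) and was the only gene of the 7 with an unadjusted p under 0.05.

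Of 16 transcription factor genes of interneurons, 0 passed the test and 0 had an unadjusted p under 0.05. Their median log2 fold change was -0.049, with 12 of the 16 below 0. *Satb1*, at 81.9 ± 6.32 and 77.2 ± 6.96 CPM, and *Lhx6*, at 15.6 ± 0.75 and 15.1 ± 1.46 CPM, act in the *Pvalb* and *Sst* classes. Their log2 fold changes were -0.087 and -0.045. *Maf*, at 16.9 and 17.4 CPM, had 0.040, and the non-coding *Dlx6os1*, at 16.9 and 15.8 CPM, had -0.10.

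Of 20 other genes of interneuron classes, 0 passed the test, and their median log2 fold change was -0.054. The most abundant were *Cnr1*, the cannabinoid receptor of *Cck* basket cells, at 233 ± 14.5 and 219 ± 22.2 CPM, and *Kcnc1*, a potassium channel gene of fast-spiking cells, at 201 ± 11.1 and 208 ± 20.3 CPM. *Nos1*, of neuronal nitric oxide synthase, had 123 ± 9.45 and 125 ± 9.15 CPM, and *Kcnc2* had 119 ± 13.7 and 129 ± 23.7 CPM. The genes with an unadjusted p under 0.05 were *Erbb4* and *Lamp5*, with log2 fold changes of -0.18 and -0.19 (adjusted p = 0.194 and 0.196, same edgeR test), named here after their values were seen.

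Of 15 receptors and partners of the markers' products, 13 were tested, and 1 was lower in *Gadd45a*-KO at 1% with 0 higher. Over all genes tested, 2.62% were lower at 1%. An unadjusted p under 0.05 was reached by 4 of the 13, *Vldlr*, *Lrp8*, *Vipr1* and *Vipr2*, against 13.7% of all genes (same edgeR test). *Vipr1*, named after its value was seen, had a log2 fold change of -0.15 (adjusted p = 0.339, same edgeR test). The median log2 fold change of the list was -0.072. The gene lower at 1% was *Vldlr* (ENSMUSG00000024924, chr19:27290974-27328721), the very low density lipoprotein receptor that binds reelin. It ran from 88.2 to 105 CPM in *Gadd45a*-WT and from 77.4 to 88.6 CPM in *Gadd45a*-KO, and 5 of the 6 *Gadd45a*-KO libraries were below all of *Gadd45a*-WT. The means were 98.4 ± 6.08 and 82.3 ± 4.10 CPM, and the log2 difference was -0.26 (standard error 0.045, adjusted p = 0.0033, same edgeR test), with a two-sided exact permutation p = 0.0043. The call at 1% was lost with the length offset, where the log2 fold change was -0.17 (adjusted p = 0.0227, same edgeR test). It was also lost without replicate 3, 5 or 6 of *Gadd45a*-WT and without replicate 1, 2, 4 or 6 of *Gadd45a*-KO, with values between -0.25 and -0.23, and was kept without both replicates 2 and 3 labelled *Gadd45a*-KO, at -0.28.

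The other genes of the reelin pathway did not pass. *Lrp8*, the second reelin receptor, had 102 ± 6.82 and 93.5 ± 4.14 CPM, giving -0.12 on the log2 scale (adjusted p = 0.195, same edgeR test). *Dab1*, the adaptor that both receptors share, had 166 ± 4.61 and 157 ± 12.5 CPM, with -0.088 (adjusted p = 0.464, same edgeR test). Whether the 3 changes differ from each other was not tested. *Npy2r*, a receptor of neuropeptide Y, had 90.5 ± 10.7 and 93.3 ± 9.08 CPM, with 0.043. The largest estimate of the list was that of *Vipr2*, a receptor of *Vip*, at 2.48 (standard error 0.77, adjusted p = 0.104, same edgeR test), which is named after its value was seen. Its mean and SD in *Gadd45a*-KO were 4.57 and 6.27 CPM against 0.82 ± 0.28 CPM in *Gadd45a*-WT. Replicates 2 and 3 labelled *Gadd45a*-KO, with the high thalamic sums, had 7.60 and 16.2 CPM of *Vipr2*, whereas the other 10 libraries had 0.44 to 1.18 CPM. Without both of them the estimate was 0.18 with a standard error of 0.24 (adjusted p = 1.00, same edgeR test), and the part of thalamic tissue was not tested.

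Marker lists of other cells gave the surroundings of these values. Of the 8 principal cell markers 1 was lower at 1%, *Zbtb20*, a transcription factor of pyramidal and granule cells, with 381 ± 36.4 and 283 ± 21.5 CPM and no overlap (log2 fold change -0.43, adjusted p = 0.0011, same edgeR test), but -0.14 (adjusted p = 0.239) with the length offset. At 1% there were 0 calls among 7 tested thalamic, 7 striatal, 3 tested Cajal-Retzius, 6 choroid plexus, 4 oligodendrocyte, 4 astrocyte and 4 microglial markers. Their median log2 fold changes were 0.77 for thalamic and 0.45 for oligodendrocyte markers, 0.45 for choroid plexus, 0.15 for striatal, 0.15 for Cajal-Retzius, 0.095 for astrocyte and 0.063 for microglial markers. The median of the 10 interneuron markers was -0.047.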

How the data were processed

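Poly(A) RNA from the hippocampi of 12 mice was sequenced by the authors as stranded libraries. They aligned the reads with TopHat 1.4.1 to NCBIM37/mm9 and counted them per Ensembl gene with HTSeq 0.5.4p3, and the deposited values are whole read counts without normalization. Gene symbols, exon lengths and coordinates came from an annotation of the same build but an earlier Ensembl release, which named 37205 of 37991 genes.

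Counts were scaled with TMM factors and tested with the quasi-likelihood test of edgeR 4.0.16 (R 4.3.3, filterByExpr, no covariate, 6 against 6 libraries). Standard errors were taken as the absolute log2 fold change divided by the root of F. DESeq2 1.42.0, other size factors and filters, a replicate block, an offset on transcript length (spline with 5 degrees of freedom) and leaving out each library were the alternatives. Leaving out replicates 2 and 3 labelled *Gadd45a*-KO together was chosen after seeing the data. Permutation tests used Python 3.11.15 with scipy 1.17.1, exact or with 99999 permutations within the labels, and figures used matplotlib 3.10.9. The edgeR and DESeq2 fits were tested on simulated counts. Libraries of one label differed by more than counting error (chi-square per degree of freedom 9.03 to 40.8 over 30 pairs).

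The text names all 10 members, *Gadd45a*, every gene of a list at 1%, the 4 most abundant genes of each list of the pathway, and the 3 genes most like each member. A few of the genes that this rule names are not reported here. The members and lists were chosen with earlier results of these data known.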

Additional observations from a re-analysis of the deposited data

Results flagged for a closer look

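*Npy* stood out in 1 library of each label. It was at 31.9 CPM in replicate 4 labelled *Gadd45a*-WT, against 22.1 to 24.2 CPM in the other 5 of that label, a gap of 0.789 of the range of the group. It was at 32.3 CPM in replicate 6 labelled *Gadd45a*-KO, against 20.3 to 24.1 CPM in the other 5, a gap of 0.686 of the range. Both gaps exceed Dixon's 95% critical value for 6 samples. Of 22 groups examined, 2 were singled out in this way, where chance singles out about 1 in 20 groups, or 1.1 of 22. Without the first library the log2 fold change of *Npy* was 0.048, and without the second it was -0.14.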

How the results depend on the processing

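All 10 markers stayed above 5% false discovery rate under each alternative, and leaving out single libraries gave log2 fold changes from -0.046 to -0.017 for *Gad1* and from -0.27 to -0.073 for *Sst*. For *Reln* they ran from -0.15 to -0.047, with a lowest adjusted p of 0.260 (same edgeR test). Without replicate 1 labelled *Gadd45a*-WT, where *Reln* was lowest, 1 marker had an unadjusted p under 0.05 in that test. The signs were less stable. For *Slc32a1* the log2 fold change was 0.00022 with RLE size factors, 0.0011 without a filter, 0.0017 with at least 10 reads in every library, 0.010 without normalization factors, and -0.074 to 0.051 with single libraries left out. With single libraries left out, *Pvalb* ranged from -0.028 to 0.083, *Vip* from -0.15 to 0.047, *Npy* from -0.14 to 0.048 and *Calb2* from -0.22 to 0.45. With the length offset *Reln* was 0.053, and 0.056 with the replicate block as well. Without replicates 2 and 3 labelled *Gadd45a*-KO, a choice made after seeing the data, *Slc32a1* was 0.015, *Vip* 0.13, *Cck* 0.0095, *Npy* 0.016, *Calb2* -0.62, *Slc38a1* -0.014, *Kcnc1* -0.011 and *Kcnc2* -0.040.

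Over all genes, the number lower at 1% was 430, and it was 660 with DESeq2, 248 with the length offset, 274 with that offset and the replicate block, 199 without replicates 2 and 3 labelled *Gadd45a*-KO, 726 at 5%, and 239 to 467 with single libraries left out. The number higher was 4, and it was 18 with DESeq2 and 20 at 5%. Calls among receptors and partners numbered 1, and 0 with the length offset, with or without the block, and 0 to 1 with single libraries left out. Calls among principal cell markers numbered 1, and 0 with the length offset, with or without the block. The cause was not tested.

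Equal replicate numbers were not taken to pair the libraries, since no source says that they do and replicate 6 had a correlation of -0.076 between its deviations under both labels. The other 5 of 6 pairs were above 0.1, the mean was 0.140 for equal numbers against -0.028 for unequal ones, and 4 of 12 libraries correlated best with their own number. With the replicate block the test gave 509 lower genes and 0 markers, with a median log2 fold change of -0.062 over the markers. The depth of 44594261 reads or more leaves the spread between mice, not counting error, as the limit for all 10.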
